A study of Homo sapiens with 20 samples.

Results

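The genes described here fold, quality-check and export proteins that enter the endoplasmic reticulum (ER). A list of 49 gene symbols defined them: sensors and transcription factors of the unfolded protein response (UPR), ER chaperones, disulfide and prolyl isomerases, genes of ER-associated degradation (ERAD) and genes of translocation and export. A gene counted as measured where a probe set carried its symbol and no other. This held for 42 of the 49 genes, each with 1 such probe set, among 22011 probe sets on the array. The other 7 listed genes, HSP90B1, PDIA3, P4HB, PPIB, SEC61B, SPCS1 and SPCS2, had no such probe set, and 4 of them appeared only in probe sets with several symbols. The measured genes PDIA5, PDIA6, SSR3 and EDEM2 also appeared in probe sets with several symbols, which were not used. No measured value was used to choose the members, but the list was drawn up with earlier results of these arrays known.

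RNA came from 2 established human lines, LP-1 from a multiple myeloma and Raji from a Burkitt lymphoma, and was hybridised to 20 Affymetrix exon arrays, 10 groups of 2 biological replicates. In each line the groups were untreated cells at 0 h, cells given 500 nM of an inhibitor of BET bromodomain proteins for 4 or 8 h, and cells given 500 nM of its inactive enantiomer for 4 or 8 h. The compound is not named in the labels. LP-1 was grown in IMDM and Raji in RPMI, so line and medium cannot be told apart, and each disease is represented by 1 cell line. No untreated sample was taken at 4 or 8 h, so compound and time in culture are joined in any comparison with untreated cells.

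Proteins bound for secretion enter the ER through the SEC61 channel, lose their signal peptide to signal peptidase, fold with the help of chaperones such as the HSP70-class protein HSPA5 (BiP), and acquire disulfide bonds from isomerases that ERO1 oxidases keep active. Chains that fail to fold are handed by ERAD to the cytosolic proteasome. When unfolded chains accumulate, the sensors ERN1 (IRE1alpha), ATF6 and PERK start the UPR, and XBP1, whose messenger is spliced by ERN1, drives the large secretory apparatus of plasma cells, the normal counterpart of myeloma. Burkitt lymphoma corresponds to a germinal centre B cell, which has not yet become an antibody-secreting cell.

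Many of these genes carry ER stress response elements (ERSE and ERSE-II) or UPR elements (UPRE) in their promoters, the sites known for ATF6 with the factor NF-Y and for XBP1. A 300-base window around each start (250 bases before it and 50 after), from RefSeq on GRCh38.p14, was found for 37 of the 42 measured genes. Both strands were searched for CCAAT and CCACG separated by 9 bases of any kind (ERSE), ATTGG and CCACG separated by 1 base of any kind (ERSE-II), and TGAC followed directly by GTGG (UPRE). The stretches below come from genes called for inhibitor over enantiomer (ERO1B, HERPUD1, SDF2L1) or between the untreated lines (XBP1, SSR3). HSPA5 and HYOU1, known UPR chaperone genes, were called in neither. Sequences run 5′ to 3′ on the gene's strand, with the matched motif letters in capitals and up to 16 bases on each side in lower case.
XBP1: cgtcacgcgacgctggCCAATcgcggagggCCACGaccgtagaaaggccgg
HSPA5: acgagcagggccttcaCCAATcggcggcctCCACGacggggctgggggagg
ERO1B: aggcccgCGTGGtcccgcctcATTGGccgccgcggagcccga
HERPUD1: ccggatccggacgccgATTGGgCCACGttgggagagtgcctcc
SDF2L1: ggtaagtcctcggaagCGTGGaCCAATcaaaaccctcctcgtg
HYOU1: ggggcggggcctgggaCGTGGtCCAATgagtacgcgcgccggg
SSR3: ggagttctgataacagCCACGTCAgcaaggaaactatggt
On GRCh38.p14 these lie at chr22:28800587-28800637 (minus strand) for XBP1, chr9:125241375-125241425 (minus) for HSPA5, chr1:236282167-236282208 (minus) for ERO1B, chr16:56932009-56932051 (plus) for HERPUD1, chr22:21642098-21642140 (plus) for SDF2L1, chr11:119057258-119057300 (minus) for HYOU1 and chr3:156554143-156554182 (minus) for SSR3. The XBP1 and HSPA5 stretches hold an ERSE on the gene's own strand, 52 to 34 and 66 to 48 bases before the start. The ERO1B stretch holds an ERSE on the opposite strand, 243 to 225 bases before the start. An ERSE-II lay on the gene's own strand in HERPUD1 and on the opposite strand in SDF2L1 and HYOU1. HYOU1 held a further ERSE-II farther upstream that overlapped a UPRE. SSR3 held a UPRE on the opposite strand.

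ERSE was present in 7 of the 37 measured genes with a window (18.9%), CALR, CANX, CRELD2, ERO1B, HSPA5, PDIA6 and XBP1. Over all gene symbols with a window it was present in 25 of 27305 (0.0916%). ERSE-II was present in 3 of 37 (8.11%), HERPUD1, HYOU1 and SDF2L1, against 0.0696% of all symbols. UPRE was present in 4 of 37 (10.8%), DNAJC10, HYOU1, SSR3 and SSR4, against 0.927% of all symbols. These sites are known from genes of this kind, so the higher shares could be foreseen and only describe the list. A match describes the letters in the window and does not show that a factor binds there.

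Values are log2 expression values per gene as deposited, so a difference of 1 is a 2-fold change. Each comparison was tested with limma on all 22011 probe sets and all 20 arrays, two-sided, and a gene was called where its Benjamini-Hochberg adjusted p was under 0.05. With 2 arrays a group, the error of each difference comes from the spread within all 10 groups, so the precision is set by how few arrays there are. The 95% interval of a difference spanned between 0.47 and 1.37 log2 units, depending on the gene, with a median of 0.72. Array medians ran from 5.13 to 5.39. The inhibitor groups carried the known response to BET inhibition: MYC differed by -2.30 to -1.40 and HEXIM1 by 1.04 to 1.93 from the inactive enantiomer in the 4 comparisons, all called. The median of 10 plasma cell markers lay between 6.93 and 8.30 on the LP-1 arrays and between 5.19 and 6.12 on the Raji arrays. The median of 11 B cell markers lay between 4.47 and 5.14 in LP-1 and between 8.03 and 8.86 in Raji, in the order of the labelled cell types. Of the markers of other cells, 6 of 8 T and NK cell, 2 of 5 myeloid and 3 of 9 epithelial or fibroblast genes were low. These lay below the 25th percentile of the probe sets on every array of each line, as 25% of probe sets do on an array by definition. The myeloid and the epithelial or fibroblast counts are not far from that share. Other markers were not low: KRT8 read 8.99 in untreated LP-1 and 9.11 in untreated Raji, CD68 6.21 and 6.22, and NCAM1 6.31 and 4.24. Fewer cells carrying an RNA and less of it per cell cannot be told apart in RNA from bulk cultures.

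Untreated Raji cells expressed much of the secretory apparatus at lower levels than untreated LP-1 cells. The 12 chaperones and co-chaperones were called about as often as all probe sets (25% against 24.3%). Of the 42 genes, 22 were lower in Raji and 5 higher, 64.3% in all, against 24.3% of all probe sets (17.5% lower and 6.79% higher). The members' median difference was -0.65, against -0.03 over all probe sets. Both Raji arrays lay below both LP-1 arrays for 29 of the 42 genes, as for 35.2% of all probe sets, and above both for 10, as for 26.1%. Centring each array on its median moved the median of all probe sets to 0.11 and that of the members to -0.52, and the share of higher genes among all calls from 28% to 41.2% (45.8% with quantile normalization).

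All 4 UPR sensors and factors were called lower in Raji, as were 17.5% of all probe sets, with a median difference of -1.73. XBP1, the plasma cell UPR factor, read 9.43 on both LP-1 arrays and 7.54 and 7.64 on the Raji arrays. Its difference was -1.84 ± 0.15 (± standard error throughout), 3.57-fold, with an adjusted p of 1.13e-06. The probe set gives total XBP1 RNA and does not separate its spliced form. ATF6, a membrane-bound factor released by cleavage under ER stress, read 9.46 and 9.72 in LP-1 and 7.94 and 8.01 in Raji (-1.61 ± 0.22, adjusted p = 9.62e-05). ERN1, the kinase and RNase that splices XBP1, read 6.26 and 6.25 in LP-1 and 5.48 and 5.39 in Raji (-0.82 ± 0.16, adjusted p = 0.00173). CREB3L2, a membrane-bound relative of ATF6, read 6.60 and 6.95 in LP-1 and 4.97 and 4.88 in Raji (-1.85 ± 0.16, adjusted p = 1.28e-06). For each of the 4 genes the arrays of the lines did not overlap, and the gap was wider than the spread within either line. Both Raji arrays lay below both LP-1 arrays for 35.2% of all probe sets.

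Among the 12 chaperones and co-chaperones 3 were called (25%, near the 24.3% of all probe sets). All 3 were lower in Raji, as were 17.5% of all probe sets, and the median difference of the 12 was -0.07. HSPA5, the main HSP70 chaperone of the ER, read 10.80 and 10.54 in LP-1 and 10.88 and 10.92 in Raji. The difference of 0.23 ± 0.13 did not pass (adjusted p = 0.282), and its 95% interval ran from -0.06 to 0.52. The intervals thus left out a 2-fold difference for HSPA5, as they did for the lectin chaperones CALR (-0.12 to 0.35) and CANX (-0.47 to 0.06), the nucleotide exchange factor HYOU1 (-0.48 to 0.12), the HSPA5-binding protein MANF (-0.23 to 0.49), SDF2L1 (-0.28 to 0.36), a partner of the co-chaperone DNAJB11, and CRELD2 (-0.22 to 0.40). The 3 genes called lower were MZB1, a B-lineage factor of immunoglobulin assembly (-1.05 ± 0.18), and the HSPA5 co-chaperones DNAJB9 (-1.28 ± 0.17) and DNAJB11 (-0.54 ± 0.17). DNAJC10, a co-chaperone with a disulfide reductase activity, read 7.85 and 8.13 in LP-1 and 8.71 on both Raji arrays, and missed the threshold (0.72 ± 0.25, adjusted p = 0.0539).

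The 9 isomerases and oxidases held the widest difference in each direction. PDIA5, a disulfide isomerase, read 7.41 and 7.57 in LP-1 and 4.54 and 4.56 in Raji (-2.94 ± 0.27, 7.66-fold, adjusted p = 2.89e-06). ERP44, which retains ERO1 oxidases and unfinished immunoglobulin in the early secretory pathway, was also lower (-0.78 ± 0.13). Higher in Raji were ERP27, a substrate-binding protein without a catalytic site (1.45 ± 0.32, adjusted p = 0.00368), ERO1B, an oxidase of disulfide isomerases (1.36 ± 0.18, adjusted p = 6.82e-05), and the prolyl isomerase FKBP11 (0.40 ± 0.11, adjusted p = 0.0209). ERO1B read 3.58 and 3.68 in LP-1 and 5.19 and 4.78 in Raji. ERP27 read 2.75 and 2.04 in LP-1 and 3.44 and 4.25 in Raji, so its 2 arrays within each line lay farther apart than the nearest arrays of the 2 lines. ERP27 was below the 25th percentile of the array's probe sets on all 10 LP-1 arrays and on 4 of the 10 Raji arrays, and ERO1B on 8 LP-1 arrays, so that both are near the floor of the array in LP-1. The FKBP11 and ERP27 calls were each lost when replicate 2 of either untreated group was left out, with adjusted p of 0.156 and 0.183 for FKBP11 and 0.0561 and 0.0585 for ERP27.

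ERAD genes went both ways. EDEM3, a mannosidase that marks glycoproteins for disposal, read 10.25 and 10.61 in LP-1 and 7.58 and 7.44 in Raji (-2.91 ± 0.22, 7.54-fold, adjusted p = 3.58e-07). SEL1L, the adaptor of the ERAD ubiquitin ligase, read 9.55 and 9.63 in LP-1 and 7.94 and 7.76 in Raji (-1.74 ± 0.19, adjusted p = 1.48e-05). The ligase itself, SYVN1 (HRD1), went the other way, from 7.55 on both LP-1 arrays to 8.37 and 8.34 in Raji (0.81 ± 0.12, adjusted p = 0.000283). EDEM1, a relative of EDEM3, was also higher in Raji, at 7.68 and 7.65 against 6.34 and 6.49 (1.25 ± 0.20, adjusted p = 0.000334). EDEM1 and EDEM3, and likewise SEL1L and SYVN1, thus differed between the lines in opposite directions. EDEM2 and the 3 Derlin genes, which code for membrane proteins of the retrotranslocation machinery, were lower, with differences from -1.19 to -0.88, and HERPUD1, a stress-induced scaffold of the ligase complex, differed by 0.08 ± 0.13 (adjusted p = 0.769).

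Translocation and export genes were lower in Raji almost throughout, with a median of -1.05. Of the 8 genes 7 were called lower and 0 higher, against 17.5% and 6.79% of all probe sets. All 4 subunits of the translocon-associated TRAP complex were lower, with differences of -2.06 for SSR3, -1.89 for SSR2, -0.80 for SSR1 and -0.70 for SSR4. SSR2 read 11.21 and 11.53 in LP-1 and 9.39 and 9.57 in Raji, and SSR3 read 8.98 and 9.37 in LP-1 and 7.10 and 7.12 in Raji. SPCS3, a signal peptidase subunit (-1.60 ± 0.16), SEC61A1, the channel itself (-1.22 ± 0.14), and SEC24D, a cargo adaptor of the vesicles that leave the ER (-0.88 ± 0.16), were also lower. SEC11C, a catalytic subunit of signal peptidase, missed the threshold (-0.60 ± 0.21, adjusted p = 0.0579).

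**Figure D1:**
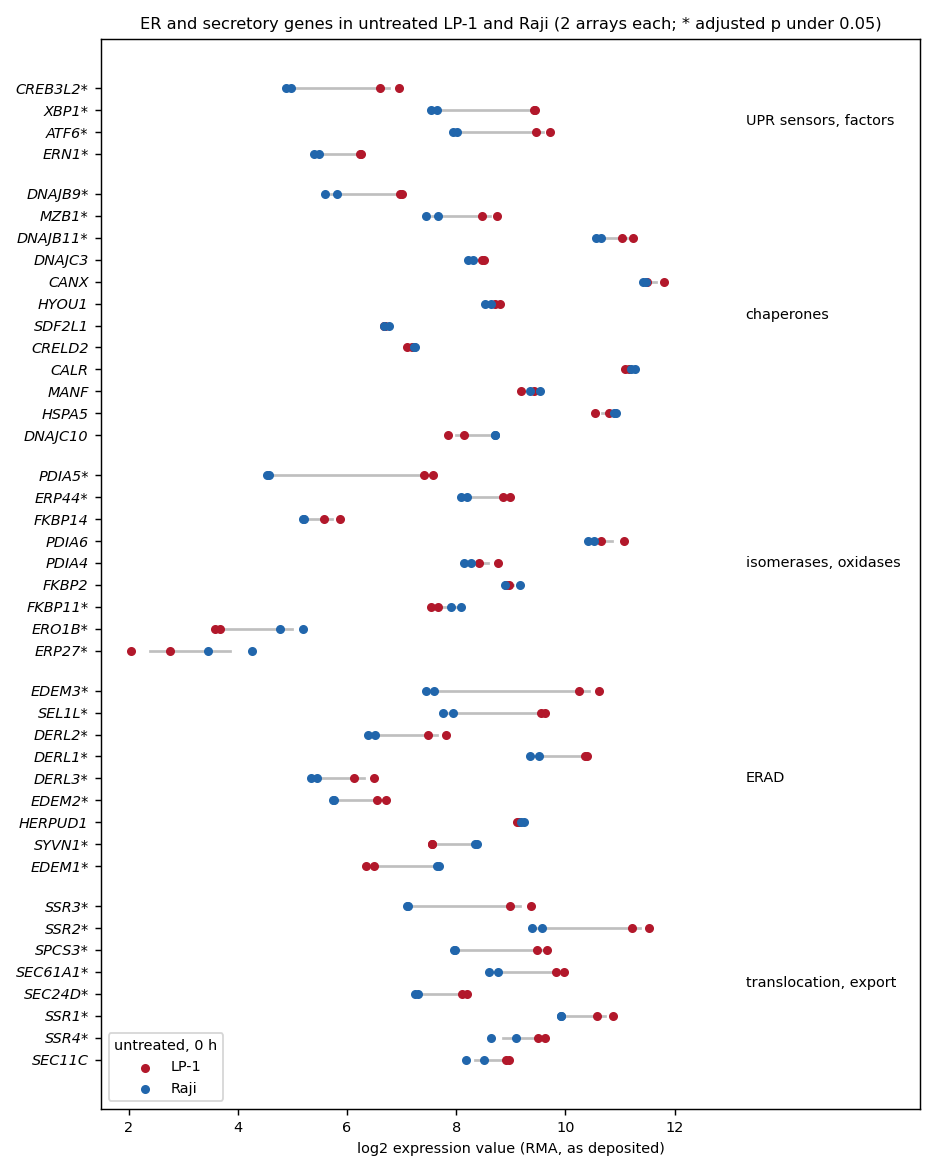
Log2 expression value (horizontal axis) of each of the 42 measured genes on the 2 untreated LP-1 arrays (red) and the 2 untreated Raji arrays (blue), by role and ordered by difference, with a grey line joining the means and an asterisk for an adjusted p under 0.05. Raji points lie to the left for all 8 translocation and export genes and all 4 UPR factors, as for 35.2% of all probe sets. Those of the chaperones CALR, CANX, HSPA5, HYOU1, MANF, SDF2L1 and CRELD2 nearly coincide with the LP-1 points.

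The genes around the list differed in the same direction. Of 121 measured genes in 7 further ER lists, 69 were called lower in Raji and 3 higher, 59.5% in all, against 17.5% lower, 6.79% higher and 24.3% in all among all probe sets. They comprised 16 of 23 N-glycosylation genes, 17 of 21 genes of ER to Golgi transport, 12 of 21 other folding genes (1 higher), 10 of 18 other ERAD genes, 7 of 15 other translocation genes (1 higher) and 6 of 10 other UPR transducers. The PERK and ATF4 arm, the third UPR branch, had 1 lower and 1 higher of 13.

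The untreated difference was set beside the promoter letters. The 10 measured genes with an ERSE or ERSE-II had a median difference of 0.06. Of these, 2 were called, XBP1 lower and ERO1B higher, a share near the 24.3% of all probe sets. The 10 include the chaperones and co-chaperones CALR, CANX, CRELD2, HSPA5, HYOU1 and SDF2L1, so motif and role cannot be told apart. The 27 genes with a window and neither motif had a median of -0.82, and 21 were called. The 5 genes without a window in the table had a median of -0.88, and 4 were called. This is a description of 3 groups formed after the values were known, and no test was run on it.

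**Figure D2:**
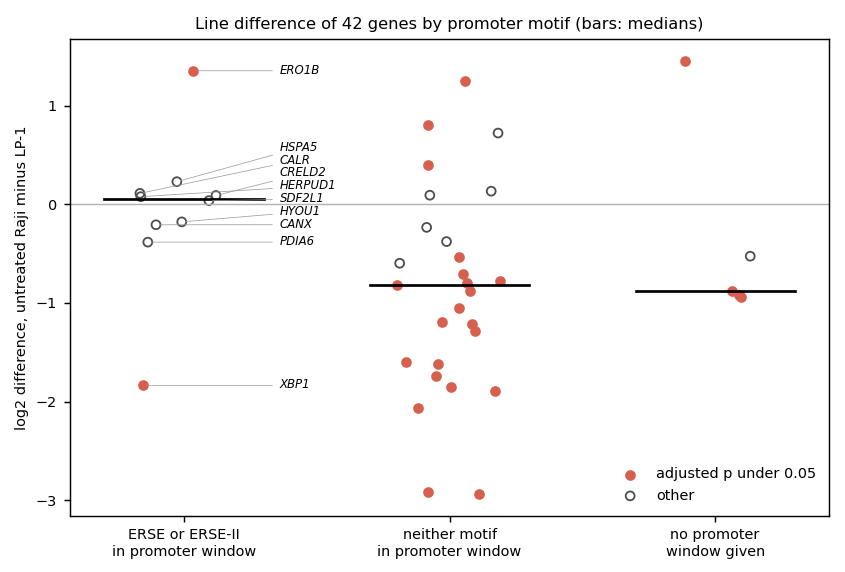
Log2 difference, untreated Raji minus untreated LP-1 (vertical axis), for each of the 42 genes, split by whether the promoter window holds an ERSE or ERSE-II; filled points have an adjusted p under 0.05, bars are medians and the sideways scatter has no meaning. In the first column 8 of 10 genes lie near 0 and ERO1B and XBP1 are called, against 21 of 27 in the second and 24.3% of all probe sets.

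With the BET inhibitor, few of these genes were called in either line, which does not show that the others stayed the same. Against the enantiomer control of the same time and dose, 0 of 42 genes were called in LP-1 at 4 h (2.28% of all probe sets were), 3 at 8 h (7.14% against 5.73%), 2 in Raji at 4 h (4.76% against 1.78%) and 4 in Raji at 8 h (9.52% against 1.88%). By direction, LP-1 at 8 h had 1 member higher and 2 lower, where 3.76% of all probe sets were higher and 1.97% lower. Raji had 2 higher and 0 lower at 4 h (1.44% and 0.341% of all probe sets) and 1 higher and 3 lower at 8 h (0.827% and 1.05%). In LP-1 at 4 h 0.377% of all probe sets were higher and 1.9% lower. At an unadjusted p under 0.05 the counts were 5, 6, 17 and 15 of the 42 genes. Among all 22011 probe sets they were 3153, 4163, 3107 and 2870. The calls fell on 5 genes: FKBP11, SDF2L1 and HERPUD1 were lower, and ERO1B and ERP27 higher. For a difference between the lines in the response, 12 members at each time had an unadjusted p under 0.05. Among all 22011 probe sets 3353 did at 4 h and 1989 at 8 h. No member was called for such a difference, at 4 h (0.114% of all probe sets called) or at 8 h (0.245%). The effects given for one line are therefore not shown to differ from those in the other.

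**Figure D3:**
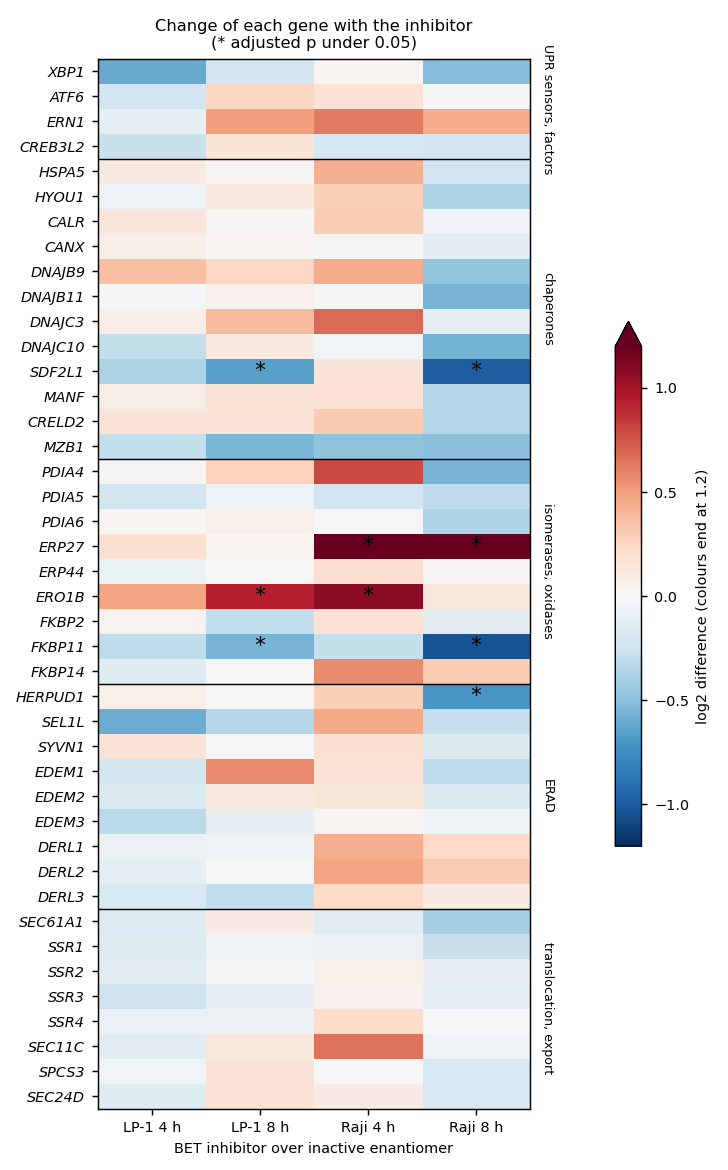
Log2 difference, BET inhibitor over inactive enantiomer, for the 42 genes (rows, by role) in the 4 comparisons (columns), blue for lower and red for higher, with an asterisk for an adjusted p under 0.05. The asterisks number 0, 3, 2 and 4 from left to right, and in the Raji 8 h column every chaperone is blue.

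FKBP11, a prolyl isomerase of the ER expressed in secretory cells, fell at 8 h in both lines. In Raji it read 8.00 and 8.01 with the inactive enantiomer at 8 h and 6.93 and 7.01 with the inhibitor, which was lower than on any other Raji array. The difference was -1.04 ± 0.11, 2.06-fold, with an adjusted p of 0.000975, and it was called with any 1 array left out. At 4 h in Raji it read 7.78 and 7.88 against 7.57 and 7.51 (-0.29 ± 0.11, adjusted p = 0.259). In LP-1 it read 7.68 and 7.58 with the inactive enantiomer at 4 h and 7.34 and 7.30 with the inhibitor (-0.31 ± 0.11, adjusted p = 0.221), then 7.52 and 7.70 against 7.14 and 6.97 at 8 h (-0.55 ± 0.11, adjusted p = 0.0139). The inhibitor arrays lay below the control arrays in all 4 comparisons. The LP-1 call at 8 h was lost without replicate 2 of either group (adjusted p = 0.107 and 0.0778).

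SDF2L1, the DNAJB11 partner, fell at 8 h in both lines. In Raji it read 7.02 and 7.09 with the inactive enantiomer and 5.90 and 6.23 with the inhibitor (-0.99 ± 0.15, 1.99-fold, adjusted p = 0.00641). In LP-1 it read 7.11 and 6.75 against 6.40 and 6.15 (-0.66 ± 0.15, 1.57-fold, adjusted p = 0.0223). The groups did not overlap in either line. At 4 h the difference was -0.38 ± 0.15 in LP-1 (adjusted p = 0.25) and 0.15 ± 0.15 in Raji (adjusted p = 0.734). The Raji call was lost without replicate 2 of the inactive group (adjusted p = 0.0533) or replicate 1 of the inhibitor group (0.0613). The LP-1 call was lost without replicate 1 of the inactive group (0.166) or replicate 2 of the inhibitor group (0.12).

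HERPUD1, the ERAD scaffold, fell in Raji at 8 h, from 9.16 and 9.35 with the inactive enantiomer to 8.49 and 8.62 (-0.70 ± 0.13, 1.62-fold, adjusted p = 0.0173). Both inhibitor arrays lay below all other Raji arrays, which ran from 9.14 to 9.52. The call was lost when any 1 of the 4 arrays compared was left out, with adjusted p between 0.0504 and 0.139. In LP-1 at 8 h it read 9.12 and 9.10 against 9.23 and 9.01 (0.01 ± 0.13, adjusted p = 0.984). The difference between the lines was -0.71, with an unadjusted p of 0.00206 and an adjusted p of 0.182.

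ERO1B, the oxidase, rose in LP-1 at 8 h and in Raji at 4 h. In LP-1 at 8 h it read 3.14 and 3.38 with the inactive enantiomer and 4.14 and 4.23 with the inhibitor (0.93 ± 0.18, adjusted p = 0.00967), and no fold is given because both inactive arrays lay below the 25th percentile of their array. In Raji at 4 h it read 4.91 and 4.80 against 5.80 and 6.08 (1.08 ± 0.18, 2.12-fold, adjusted p = 0.0109), and at 8 h 5.04 and 4.99 against 5.28 and 4.998 (0.12 ± 0.18, adjusted p = 0.875). The inhibitor arrays at 4 h were thus the highest Raji arrays, and those at 8 h overlapped the controls. At 4 h in LP-1 the difference was 0.48 ± 0.18 (adjusted p = 0.222). The LP-1 call was lost without replicate 1 of the inactive group (adjusted p = 0.081). The Raji call was lost without either replicate of the inactive group (0.0535 and 0.0622) or without replicate 2 of the inhibitor group (0.132).

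ERP27, the non-catalytic isomerase relative, rose in Raji at both times. It read 3.59 and 3.18 with the inactive enantiomer at 4 h and 5.26 and 5.73 with the inhibitor (2.11 ± 0.32, adjusted p = 0.00677). At 8 h it read 4.08 and 3.51 against 5.59 and 5.18 (1.59 ± 0.32, adjusted p = 0.024). Both inactive arrays at 4 h and replicate 2 at 8 h lay below the 25th percentile of their array, so no fold is given. All 4 inhibitor arrays lay above the 6 other Raji arrays, of which the highest read 4.25. On the LP-1 arrays it stayed between 2.04 and 3.10, below the 25th percentile of the array, where differences were 0.18 and 0.03 (adjusted p = 0.856 and 0.982). The difference between the lines was 1.93 at 4 h (adjusted p = 0.0945) and 1.56 at 8 h (0.245). The 4 h call was lost without replicate 2 of the inactive group (0.0528) or of the inhibitor group (0.0952), and the 8 h call without any 1 of the 4 arrays (0.0505 to 0.192).

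The UPR factors and HSPA5 were not called in any of these 4 comparisons with all probe sets in the fit. XBP1 in LP-1 read 9.02 on both arrays of the inactive enantiomer at 4 h and 8.32 and 8.51 with the inhibitor, a difference of -0.61 ± 0.15 (adjusted p = 0.0641). This difference was called without the probe sets of lowest signal (adjusted p = 0.0392) and with an intensity trend in the variance (0.0468). At 8 h it read 8.80 and 9.08 against 8.97 and 8.48 (-0.22 ± 0.15, adjusted p = 0.506), so the groups separated at 4 h and overlapped at 8 h. In Raji the difference was 0.03 ± 0.15 at 4 h and -0.52 ± 0.15 at 8 h (adjusted p = 0.968 and 0.123), where it read 7.44 and 7.48 against 6.83 and 7.04.

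The ERN1 differences at 4 and 8 h were -0.10 and 0.50 for LP-1, then 0.62 and 0.44 for Raji, with adjusted p between 0.0732 and 0.846. It was called in LP-1 at 8 h when replicate 2 of the inhibitor group, the lower of the pair (6.68 and 6.26), was left out (adjusted p = 0.0425). It was also called in Raji at 4 h without the probe sets of lowest signal (0.0456). The ATF6 differences were -0.23 and 0.26 for LP-1, then 0.17 and 0.01 for Raji, with inhibitor and control arrays overlapping in 3 of the 4 comparisons. The HSPA5 differences were 0.11 and 0.02 for LP-1, then 0.42 and -0.23 for Raji, with 95% intervals that all lay between -0.52 and 0.72. A 2-fold change of HSPA5 thus lay outside the interval in every comparison. SEL1L in LP-1 at 4 h differed by -0.60 ± 0.19 (adjusted p = 0.147) and was called (0.0421) only without replicate 2 of the inhibitor group.

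**Figure D4:**
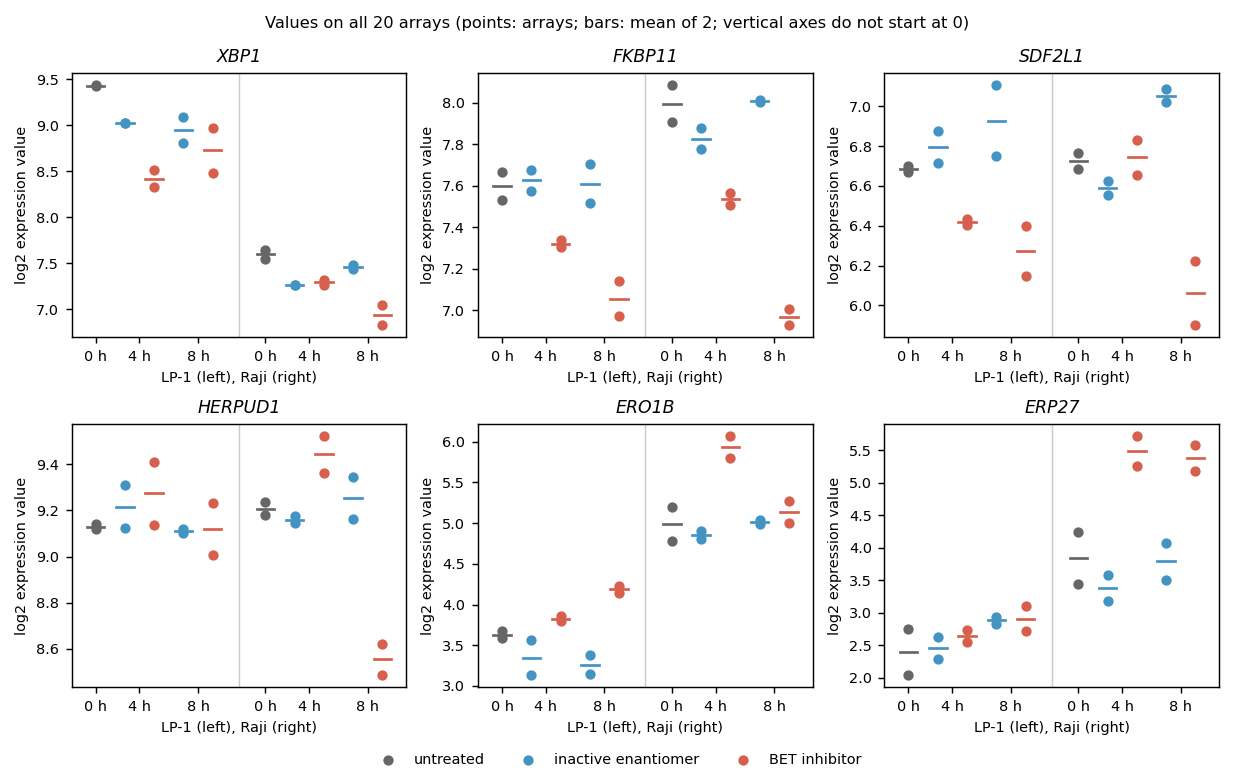
Log2 expression value (vertical axis, not starting at 0) on all 20 arrays for XBP1, FKBP11, SDF2L1, HERPUD1, ERO1B and ERP27; points are arrays, bars the mean of 2, grey untreated, blue inactive enantiomer and red BET inhibitor, LP-1 to the left and Raji to the right of each panel. FKBP11 is lower with the inhibitor than with the inactive enantiomer in all 4 pairs of groups, and ERP27 differs by 2.11 and 1.59 in the Raji pairs and by 0.18 and 0.03 in the LP-1 pairs.

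Seen as a group, the Raji genes lay mostly above the inactive enantiomer at 4 h and mostly below it at 8 h, in differences that mostly did not pass the test one by one. At 4 h 34 of the 42 lay above 0 (29 with each array centred on its median, 26 with quantile normalization) and the median was 0.17, against 0.01 over all probe sets. That median was 0.07 with quantile normalization, and 0.11 with 27 genes above 0 without replicate 1 of the inactive group. Both inhibitor arrays lay above both control arrays for 22 genes, 52.4% against 23.5% of all probe sets. In the 121 measured genes of the 7 further ER lists the share was 37.2%, with 87 above 0 and 34 below (median 0.13). Those lists had 58 genes above and 63 below 0 at 8 h (median -0.02). At 8 h 33 of the 42 lay below 0 (32 and 33 under the same scalings), including all 12 chaperones and all 8 translocation genes, and the median was -0.19 against -0.0007. Against untreated cells the inhibitor left 23 genes above and 19 below 0 at 4 h (median 0.05) and 18 above and 24 below at 8 h (median -0.13). The inactive enantiomer against the same untreated arrays left 10 above and 32 below at 4 h (median -0.16) and 27 above and 15 below at 8 h (median 0.10). The position above 0 at 4 h was thus much smaller against untreated cells than against the inactive enantiomer. At 8 h both inhibitor arrays lay below both arrays of the inactive enantiomer for 23 genes, 54.8% against 20% of all probe sets. In LP-1 the medians were -0.10 at 4 h and 0.02 at 8 h, against -0.04 and 0.06 over all probe sets. The 4 h median turned to 0.03 with quantile normalization and the 8 h median to -0.06 with centring. The 4 h median was 0.04 without replicate 1 of the inhibitor group, an array whose 75th percentile was 6.80 against 7.03 on its replicate. Some lineage markers were called lower with the inhibitor, and 0 higher. In LP-1 at 4 and 8 h and Raji at 4 and 8 h these were 1, 4, 2 and 3 of 10 plasma cell markers. Of 11 B cell markers they were 1, 1, 1 and 2. Among all probe sets 1.9%, 1.97%, 0.341% and 1.05% were called lower. The part of the lineage markers in the members' values was not tested.

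The change from 4 to 8 h in the Raji response was then tested directly, a comparison chosen after these values had been seen. Of the 42 genes, 0 were called, as were 0% of all probe sets. At an unadjusted p under 0.05 there were 16 members, and 1257 of all 22011 probe sets. The response at 8 h lay below that at 4 h for all 42 genes as deposited, for 40 after median centring and for 39 with quantile normalization. The members' median was -0.33, against -0.04 over all probe sets, of which 12173 of 22011 lay below 0. SDF2L1 (-1.14 ± 0.21, adjusted p = 0.177), HERPUD1 (-0.98 ± 0.18, adjusted p = 0.177), FKBP11 (-0.75 ± 0.16, adjusted p = 0.353) and PDIA4, a disulfide isomerase (-1.35 ± 0.33, adjusted p = 0.419), had the smallest p. For HSPA5 the response went from 0.42 at 4 h to -0.23 at 8 h (-0.66 ± 0.19, adjusted p = 0.559).

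The control arrays moved as well. The median of the 42 genes was 7.82 and 7.94 on the Raji arrays of the inactive enantiomer at 4 h, 7.95 and 8.05 on the untreated arrays and 8.25 and 8.08 with the inactive enantiomer at 8 h. With the inhibitor it was 8.04 and 8.24 at 4 h and 7.91 and 8.02 at 8 h. The inactive 4 h arrays thus stood lowest and the inactive 8 h arrays highest among the controls, and replicate 1 of the inactive group at 4 h had the lowest 75th percentile of all arrays (6.75). Leaving out 1 of the 8 arrays gave 36 to 41 genes below 0, the lowest without that array. The part of the control arrays in this result was not tested beyond these fits. In LP-1 the same comparison gave 0 calls and 2 members at an unadjusted p under 0.05, against 2901 of all 22011 probe sets. The members' median was 0.10, against 0.11 over all probe sets.

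**Figure D5:**
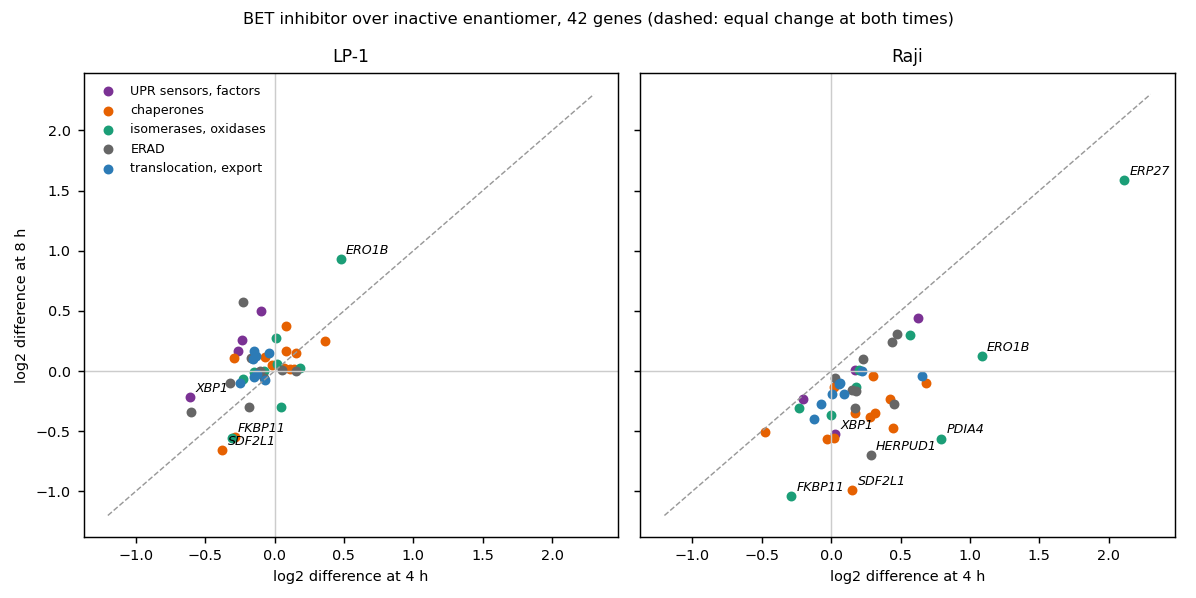
Log2 difference, BET inhibitor over inactive enantiomer, at 8 h (vertical axis) against 4 h (horizontal axis) for the 42 genes in LP-1 (left) and Raji (right), coloured by role; the dashed line marks equal differences at both times. All 42 Raji points lie below the dashed line, while the LP-1 points lie on both sides, 28 above and 14 below as deposited.

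The 10 genes with an ERSE or ERSE-II had a median time difference of -0.66 in Raji, against -0.28 for the 27 genes with neither motif. At 8 h in Raji the medians were -0.36 and -0.19. All 37 lay below 0 in the time comparison, so the 2 groups differ in size of the median and not in direction. Motif and role overlap here too, and no test was run on the split.

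The inactive enantiomer left the list without a call. Against untreated cells of the same line, 0 of 42 genes were called in LP-1 at 4 h (0.0136% of all probe sets), LP-1 at 8 h (0.504%), Raji at 4 h and Raji at 8 h (0% both). In the same order, 2, 6, 6 and 2 members had an unadjusted p under 0.05. Among all 22011 probe sets these counts were 1089, 3330, 1741 and 994. XBP1 in LP-1 read 9.43 on both untreated arrays and was -0.41 ± 0.15 different at 4 h and -0.49 ± 0.15 at 8 h (adjusted p = 0.919 and 0.164).

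The inhibitor was also set against the untreated arrays, likewise chosen after other values had been seen. These comparisons share the untreated arrays with those of the inactive enantiomer. For XBP1 the LP-1 arrays were lower at 4 h (-1.01 ± 0.15, 2.02-fold, adjusted p = 0.00317) and at 8 h (-0.71 ± 0.15, adjusted p = 0.0142), and in Raji at 8 h (-0.66 ± 0.15, adjusted p = 0.0447). Within LP-1 the 4 h inhibitor group thus had the lowest mean, 8.42, with the inactive group of that time at 9.02 and untreated cells at 9.43. The 4 h call in LP-1 was kept with any 1 array left out. The LP-1 call at 8 h was lost without replicate 2 of the inhibitor group (adjusted p = 0.105) or without either untreated array (0.0823 and 0.0828), and the Raji call without any 1 of the 4 arrays (0.108 to 0.276).

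In all, 2 of 42 genes were called against untreated cells in LP-1 at 4 h (4.76% against 6.73% of all probe sets), 2 at 8 h (4.76% against 7.66%), 3 in Raji at 4 h (7.14% against 1.26%) and 5 at 8 h (11.9% against 2.26%). At 8 h FKBP11 fell in both lines, with differences of -0.54 in LP-1 (its adjusted p was 0.0115) and -1.03 in Raji (0.00125), and the Raji call was kept with any 1 array left out. SEL1L fell in LP-1 at 4 h (-0.80, adjusted p = 0.0266). In Raji ERP27 rose at both times (1.65 and 1.54), ERO1B rose at 4 h (0.95), MZB1 fell at 4 h (-0.86, adjusted p = 0.0386), and HERPUD1 (-0.65) and SDF2L1 (-0.66) fell at 8 h. With a single array left out, the calls of SEL1L, ERP27, ERO1B, HERPUD1 and SDF2L1 in these comparisons were lost in 3 or 4 of the 4 fits each, and that of FKBP11 in LP-1 in 2. For MZB1 these fits were not read gene by gene.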

How the data were processed

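Per the labels, biotin-labelled cDNA made from total RNA by whole-transcript amplification was hybridised to Affymetrix exon arrays. Per the submitters' processing notes, the authors summarised the arrays with RMA in Affymetrix Expression Console on hg19, with versions not given in the sources used here. The deposited table holds log2 expression values per probe set, which were used as deposited with no filter. Precision depends on the number of arrays. Symbols came from the platform's annotation (14432 probe sets with 1 symbol, 2408 with several and 5171 with none), and 14404 of the first were matched to RefSeq by Entrez identifier.

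All 20 arrays were fitted with 1 mean per group in limma 3.58.1 (R 4.3.3, lmFit and eBayes), and p-values were adjusted by Benjamini-Hochberg over 22011 probe sets within each of 17 comparisons. The script was tested on simulated data. Each p-value thus rests on how far apart 2 biological replicates lay, pooled over groups. Replicates correlated at 0.973 to 0.989 and no arrays were identical. RMA's probe-level normalization can hide a change shared by all genes. Replicate numbers showed little pairing of the arrays. Deviations of same-numbered arrays in the inhibitor and inactive groups of a time correlated at -0.03 to 0.04. Over all pairs of groups they correlated at -0.03 to 0.12 within LP-1 and at -0.16 to 0.05 within Raji.

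The members, the gene lists and the comparisons were chosen with earlier results of these data known. Named in the text are XBP1, ATF6, ERN1 and HSPA5, every member called for inhibitor over inactive enantiomer, the 8 largest called differences each way between the untreated lines, and up to 3 genes per further list with the smallest p among those called. Other members are named to describe their role group and were chosen after their values were seen. Alternatives were another scaling, a filter on low probe sets, an intensity trend in the variance, a fit per line, a replicate block and leaving out each array.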

Additional observations from a re-analysis of the deposited data

How the results depend on the processing

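None of the 48 called pairs of member and comparison changed sign in the 448 alternative fits that hold them, and the count between the untreated lines stayed between 23 and 28 of 42. The unchanged sign says little about stability. The low-signal filter, the intensity trend, the fit per line and the replicate block leave each log2 difference as it was. Leaving out 1 array cannot turn a sign where the arrays of the compared groups do not overlap. The inhibitor counts moved more than the count between the untreated lines. In LP-1 at 4 h 1 member instead of 0, XBP1, was called without the probe sets below the 33rd percentile of mean signal (adjusted p = 0.0392) and with an intensity trend (0.0468). With each line fitted on its own 10 arrays, which leaves fewer degrees of freedom, inhibitor over inactive gave 0 calls in LP-1 at 8 h, 0 in Raji at 4 h and 2 in Raji at 8 h (FKBP11 and SDF2L1), and inhibitor over untreated gave 1 and 0 in LP-1 and 0 and 1 in Raji at 4 and 8 h. Inhibitor over untreated in LP-1 at 4 h also gave 1 with quantile normalization and 1 with centred arrays. Leaving out 1 array gave, for inhibitor over inactive, 0 to 1 calls in LP-1 at 4 h, 1 to 3 at 8 h, 0 to 2 in Raji at 4 h and 1 to 2 at 8 h, and for inhibitor over untreated 1 to 4, 0 to 2, 0 to 1 and 1 to 2. The response at 4 h compared between the lines gave 0 to 1, the 1 being SEL1L without replicate 2 of the LP-1 inhibitor group (adjusted p = 0.0377). A group left with 1 array was assumed to vary like the others. With the replicate number as a block within each line the counts were 0, 3, 2 and 4 for inhibitor over inactive and 28 between the lines, so no such count changed by more than 1. The numbers showed little pairing, and the block moved XBP1 over untreated in Raji at 8 h past the threshold (0.0701). The mean over several probe sets of a gene was not run, since each measured member has 1 probe set with its symbol alone. The fit per line gives no value between lines. ERP27 is dropped by the filter on low probe sets, and its levels in LP-1 and those of ERO1B are limited by signal near the bottom of the array.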

Other observations

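Beyond the listed genes, 121 measured genes of 7 further ER lists were read with the inhibitor against the inactive enantiomer. In LP-1 3 were called higher and 1 lower at 4 h, and 9 higher and 3 lower at 8 h (3.31% and 9.92% called, against 2.28% and 5.73% of all probe sets). In Raji 4 were called higher and 0 lower at 4 h, and 2 higher and 2 lower at 8 h (3.31% at each time, against 1.78% and 1.88%). The PERK and ATF4 arm held all 3 LP-1 genes higher at 4 h, among them DDIT3 (CHOP), a stress-induced transcription factor, at 1.03 ± 0.18 (adjusted p = 0.0101), and ATF3 at 0.77 ± 0.12 (0.00753). At 8 h 3 genes of that arm were higher in LP-1, among them ASNS, the asparagine synthetase, by 0.79 ± 0.16 (0.0153), and 1, TRIB3, was lower (-0.55 ± 0.15, 0.0445). BLZF1, a Golgi coiled-coil protein kept among the other UPR transducers here, was lower in LP-1 at 4 h (-1.32 ± 0.28, 0.0257).

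A few of these genes were called in both lines. ALG3, a mannosyltransferase of the N-glycan precursor, was lower at 8 h in LP-1 (-0.58 ± 0.15, adjusted p = 0.0399) and in Raji (-0.85 ± 0.15, 0.0144), and DPAGT1, the enzyme that starts that precursor, was lower in Raji at 8 h (-0.66 ± 0.12, 0.0156). The Golgi tether GOLGB1 was higher in LP-1 at 8 h (1.03 ± 0.18, 0.00586) and in Raji at 4 h (0.80 ± 0.18, 0.0401). TMBIM6, an ER membrane protein that restrains cell death, was higher at 8 h in LP-1 (0.36 ± 0.10, 0.0486) and Raji (0.42 ± 0.10, 0.0466). In LP-1 at 8 h the ERAD ATPase VCP (0.57 ± 0.15, 0.0407), HERPUD2 (0.69 ± 0.17, 0.0291), the disulfide oxidase QSOX1 (0.52 ± 0.10, 0.00843) and SEC61A2, a second channel gene (0.87 ± 0.13, 0.00298), were higher, while the ERAD ubiquitin-conjugating enzyme UBE2J1 was lower (-0.61 ± 0.16, 0.045). TRIB3 and UBE2J1 are named because they moved against their lists, a choice made after their values were seen. In Raji the VCP cofactor gene NPLOC4 (0.82 ± 0.14, 0.0138) and DPM1, a dolichol-phosphate mannose synthase subunit (0.66 ± 0.14, 0.0375), were higher at 4 h, and the co-chaperone DNAJC1 at both times (0.93 ± 0.20, 0.0373, and 1.04 ± 0.20, 0.0203). Calls of these genes were not recomputed with arrays left out.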
